A study of Mus musculus with 39 samples.

Results

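The 6 genes Lyz2, Csf1r, Ccr2, Ly6c2, Cd14 and Fcgr1, each a marker of monocytes or macrophages, were followed by symbol through the raw count tables of 33 libraries of sorted mouse lymph node dendritic cells (DC). All 6 were listed in each of the 3 tables, among 24421, 24421 and 24411 genes. The cells came from popliteal and inguinal nodes of C57BL/6 mice aged 8 to 12 weeks, and the immunized mice received nanoparticles (NP) by injection below the hock's skin. Besides CpG, DNA that activates Toll-like receptor 9, the particles held ovalbumin (OVA), bovine serum albumin (BSA) or neither. In the time course, wild-type mice received OVA_CpG NP or CpG NP and were sampled 24 h or 12 h later, beside non-immunized mice, with 2 libraries in each of these 5 groups. The costimulation experiment sampled mice 12 h after immunization in 4 groups of 2 libraries. These were Cd80/86 -/- mice given OVA and OT T cells, wild-type mice given OVA and OT cells, wild-type mice given BSA and OT cells, and wild-type mice given OVA without OT cells. The series text also names a rhodamine dye in the particles and transfer of OT-I and OT-II cells, which are T cells whose transgenic receptor recognizes a peptide of OVA. The 5-replicate experiment compared OVA_CpG NP and BSA_CpG NP at 20 h with non-immunized mice, with 5 libraries in each group. The labels name OT cells per library in the costimulation experiment alone. They do not give the DC subset sorted, or whether libraries came from separate animals, so p-values measure the spread between these libraries, which may be technical.

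Monocytes leave the bone marrow through the chemokine receptor Ccr2, depend as a lineage on growth factor signals through Csf1r, and can enter inflamed lymph nodes. There they can take on features of DC or macrophages, and a cell sorted as a DC by a few surface proteins may belong to either lineage. Classical mouse monocytes carry the surface protein Ly6C, encoded in part by Ly6c2, whereas Fcgr1 (CD64) and Cd14 are often used to separate monocyte-derived cells from conventional DC. Conventional type 2 DC also express several of these genes, Lyz2, Csf1r and Ccr2 among them.

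Libraries held 612017 to 1329203 counts in the time course, 628404 to 1621784 in the costimulation experiment and 367209 to 2052904 in the 5-replicate experiment. Levels are given as counts scaled to the library's total (counts per 1e+06 counts, CPM). They are compared within a gene, not between genes, apart from sums over marker lists and shares within pairs of paralogs. The sorted label was set against marker lists. The 6 conventional DC markers were Flt3, Itgax, Zbtb46, Dpp4, H2-DMb2 and Ciita. Their summed level lay between 126.7 and 422 CPM in the time course, 247 and 606 CPM in the costimulation experiment and 589 and 982 CPM at 20 h. Dpp4 made the largest part of the sum in every time course library, with 61.3 to 213 CPM, whereas Zbtb46 had 0.82 to 11.3 CPM there. The 10 T cell markers measured summed to 1498 to 3264 CPM in immunized and 4713 to 5040 CPM in non-immunized time course libraries. At 20 h their sum was 212 to 637 CPM, and Cd8a and Tcf7 made most of it. In OVA_CpG NP replicate 2, the highest, they had 369 and 175 counts, whereas Cd3d had 5 and Cd3e and Cd3g 0. Cd3d had 902 and 737 counts in the non-immunized time course libraries. The sum of 8 plasmacytoid DC markers was 371 to 712 CPM in immunized and 745 to 753 CPM in non-immunized time course libraries, with 0 to 1.28 CPM of their defining gene Siglech, 257.8 to 3274 CPM in the costimulation experiment and 270.3 to 582 CPM at 20 h. In bulk libraries, fewer cells of a type and less RNA per cell cannot be told apart.

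**Figure D1:**
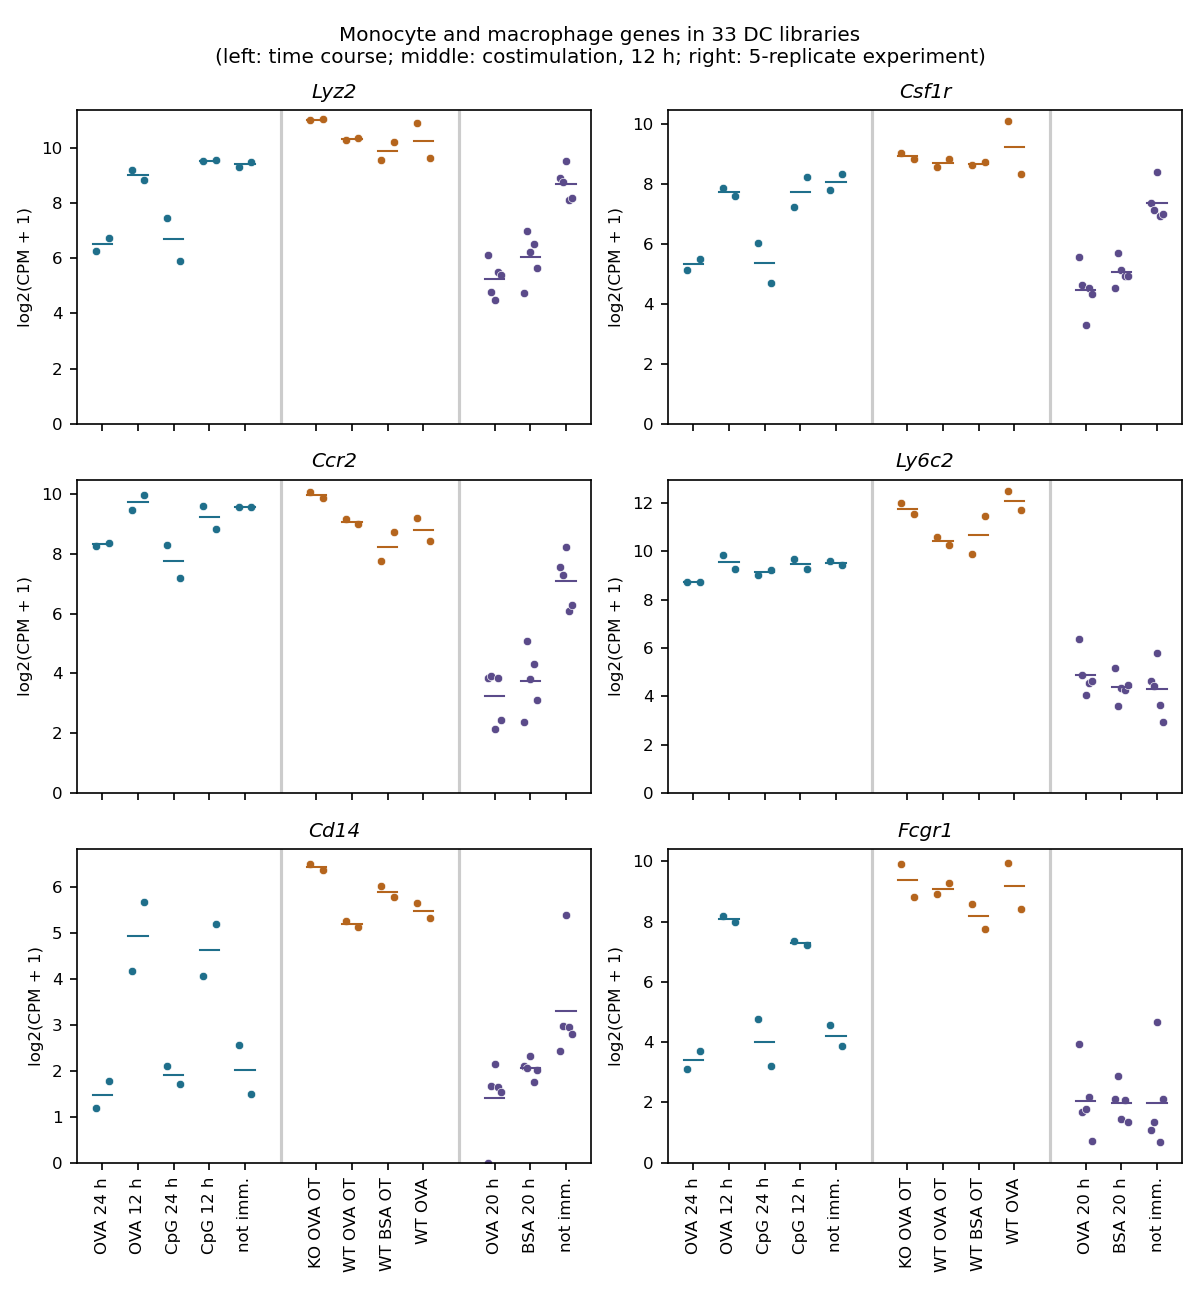
Level of each of the 6 genes in every DC library, as log2(CPM + 1), with 1 panel per gene, groups along the horizontal axis, points for libraries and a line at each group's mean. Fcgr1 and Cd14 were high at 12 h in the time course and low at 24 h and in non-immunized libraries, while Lyz2, Csf1r and Ccr2 were low at 24 h and at 20 h.

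The first question was how the 6 genes stood 12 h after immunization. Fcgr1 and Cd14 rose, and the other 4 genes passed the test in neither particle group. Fcgr1 encodes the high-affinity receptor for IgG, which takes up antibody-bound antigen. It had 289 and 253 CPM at 12 h after OVA_CpG NP and 163 and 149 CPM at 12 h after CpG NP, against 22.8 and 13.5 CPM in non-immunized libraries. All 4 libraries of 12 h lay above both non-immunized libraries. Mean levels were 271 ± 25.1 and 156 ± 10.0 CPM against 18.1 ± 6.62 CPM (SD, n = 2 each), which is 14.9-fold and 8.61-fold higher.

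The fitted log2 fold change of Fcgr1 was 4.11 ± 0.32 (SE, edgeR quasi-likelihood test, Benjamini-Hochberg adjusted p = 3.7e-07) for OVA_CpG NP and 3.30 ± 0.33 (adjusted p = 6.4e-06) for CpG NP. Genes with an adjusted p under 0.05 are said to have risen or fallen, or to have been called. Of all 9428 genes tested, 9.56% rose with OVA_CpG NP and 11.6% with CpG NP, and 13.6% and 16.3% were called in either direction. Of the 6 genes, 2 were called in each comparison. All comparisons with the non-immunized group of the time course share its 2 libraries. Between the particles, Fcgr1 was 1.74-fold higher at 12 h with OVA_CpG NP than with CpG NP by means that did not overlap, a log2 difference of 0.81 ± 0.26 that missed the threshold (edgeR adjusted p = 0.152). No member was called by edgeR in that comparison, against 2.46% of all genes, Fcgr1 was the 1 member with an unadjusted p under 0.05, and DESeq2 called 0. Without the filter on low counts (edgeR adjusted p = 0.0103) or with these 2 groups alone in the edgeR fit (adjusted p = 0.0128) Fcgr1 was called. Of all genes tested, 3.08% and 4.89% were called in these fits.

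Cd14 encodes the co-receptor that hands bacterial lipopolysaccharide to Toll-like receptor 4. It had 17.1 and 50.4 CPM at 12 h after OVA_CpG NP and 15.8 and 35.8 CPM at 12 h after CpG NP, against 4.89 and 1.80 CPM in non-immunized libraries. These levels rest on 21 and 37 counts, 14 and 24 counts, and 6 and 2 counts. No library of 12 h overlapped the non-immunized ones, though the 2 libraries of each 12 h group differed more than 2-fold. The log2 fold change was 3.41 ± 0.67 with OVA_CpG NP (edgeR adjusted p = 0.00239) and 3.04 ± 0.70 with CpG NP (edgeR adjusted p = 0.00631). Both calls depended on single libraries. With OVA_CpG NP the adjusted p was 0.0527 without non-immunized replicate 2 and 0.0536 without the second 12 h replicate. With CpG NP it was 0.0875 and 0.0977 without the same replicates.

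The remaining genes at 12 h were Lyz2 (lysozyme M, which cuts bacterial cell walls), Csf1r (the receptor for the growth factors Csf1 and Il34), Ccr2 and Ly6c2. Lyz2 had 583 and 461 CPM with OVA_CpG NP and 729 and 757 CPM with CpG NP, against 636 and 721 CPM in non-immunized libraries. Csf1r had 235 and 196 CPM with OVA_CpG NP and 149.9 and 298 CPM with CpG NP, against 225 and 326 CPM in non-immunized libraries. Ccr2 had 705 and 999 CPM with OVA_CpG NP and 781 and 449 CPM with CpG NP, against 760.0 and 748 CPM in non-immunized libraries. For Lyz2 both OVA_CpG NP libraries lay below and both CpG NP libraries above the non-immunized ones, while Csf1r and Ccr2 overlapped in both comparisons. Ly6c2 had 908 and 617 CPM with OVA_CpG NP and 810.1 and 619 CPM with CpG NP, against 771 and 681 CPM, and overlapped likewise. Log2 fold changes of these 4 genes lay between -0.15 and 0.40 with OVA_CpG NP and between -0.09 and 0.35 with CpG NP, and the smallest adjusted p was 0.374.

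The promoter of Fcgr1, the gene with the largest rise of the 6 at 12 h in both comparisons, is shown because it held the letters of a GAS motif, which STAT factors bind. It comes from RefSeq on GRCm38.p6, chr3:96293970-96294219 on the minus strand, the 250 bases before the gene's start. Capitals mark a GAS motif (TTCNNNGAA), 109 to 101 bases before the start, and a PU.1 motif (GAGGAA) read on the minus strand, 55 to 50 bases before it.
Fcgr1: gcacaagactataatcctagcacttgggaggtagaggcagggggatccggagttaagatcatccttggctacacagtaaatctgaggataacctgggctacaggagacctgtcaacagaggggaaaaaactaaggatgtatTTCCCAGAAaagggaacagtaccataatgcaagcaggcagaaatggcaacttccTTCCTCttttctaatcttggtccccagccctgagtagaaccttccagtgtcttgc
Both strands of each window were searched, and the 2 matches do not overlap. Among 27025 promoter windows of this length, 7.18% held a GAS motif, 23.1% a PU.1 motif, 3.04% an ISRE, 9.55% a C/EBP motif and 45.4% an NF-kB motif. Of the genes searched here, Ccr2 and Lyz2 held no GAS, ISRE (GAAANNGAAA), PU.1, C/EBP (TTGCNNAA) or NF-kB (GGGNNNNNCC) motif in this window.

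By 24 h the pattern differed. Lyz2, Csf1r and Ccr2 fell below their non-immunized levels with both particles, and Fcgr1 and Cd14 were back in the low range. Lyz2 had 75.5 and 106 CPM at 24 h after OVA_CpG NP and 176 and 58.7 CPM at 24 h after CpG NP, against 636 and 721 CPM in non-immunized libraries. Every 24 h library lay below every non-immunized one. The log2 fold change was -2.69 ± 0.35 (edgeR adjusted p = 4.0e-05) with OVA_CpG NP and -2.40 ± 0.34 (adjusted p = 0.00016) with CpG NP.

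Csf1r had 34.5 and 44.7 CPM at 24 h after OVA_CpG NP and 65.4 and 24.8 CPM at 24 h after CpG NP, against 225 and 326 CPM in non-immunized libraries. Again the groups did not overlap, and the means were 6.95-fold and 6.11-fold lower. The log2 fold change was -2.58 ± 0.38 (edgeR adjusted p = 0.000175) and -2.54 ± 0.38 (adjusted p = 0.00026). Ccr2 had 307 and 327 CPM with OVA_CpG NP and 315 and 144 CPM with CpG NP, against 760.0 and 748 CPM in non-immunized libraries. Its fall was the smallest of the 3, at -1.03 ± 0.31 (edgeR adjusted p = 0.0339) with OVA_CpG NP and -1.54 ± 0.32 (adjusted p = 0.00384) with CpG NP. The Ccr2 call with OVA_CpG NP was lost when any 1 of the 4 libraries was left out, with adjusted p of 0.142 and 0.134 without non-immunized replicates 1 and 2 and 0.178 and 0.134 without OVA_CpG NP replicates 1 and 2. Among all genes, 3.92% fell with OVA_CpG NP and 3.05% with CpG NP, and 14.1% and 11% were called in either direction, beside 3 of the 6 genes called in each comparison.

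Ly6c2 did not share this fall to the same extent. It had 425 and 417 CPM with OVA_CpG NP and 520 and 596 CPM with CpG NP, against 771 and 681 CPM in non-immunized libraries. Neither 24 h group overlapped the non-immunized one, but the log2 fold changes of -0.57 ± 0.21 (edgeR adjusted p = 0.0827) and -0.18 missed the threshold. With OVA_CpG NP the change was called by edgeR with no filter on low counts (adjusted p = 0.0316) and with those 2 groups alone in the fit (adjusted p = 0.0238). These fits called 11% and 21.4% of all genes tested. Fcgr1 had 7.68 and 12.1 CPM with OVA_CpG NP and 26.1 and 8.28 CPM with CpG NP, against 22.8 and 13.5 CPM in non-immunized libraries, and was not called. Cd14 had 1 and 2 counts with OVA_CpG NP and 2 and 3 counts with CpG NP, against 6 and 2 counts. Its summed ratio of OVA_CpG NP to non-immunized was 0.545, with an exact 95% counting interval of 0.0932 to 2.27, so a change was not detectable at this depth.

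**Figure D2:**
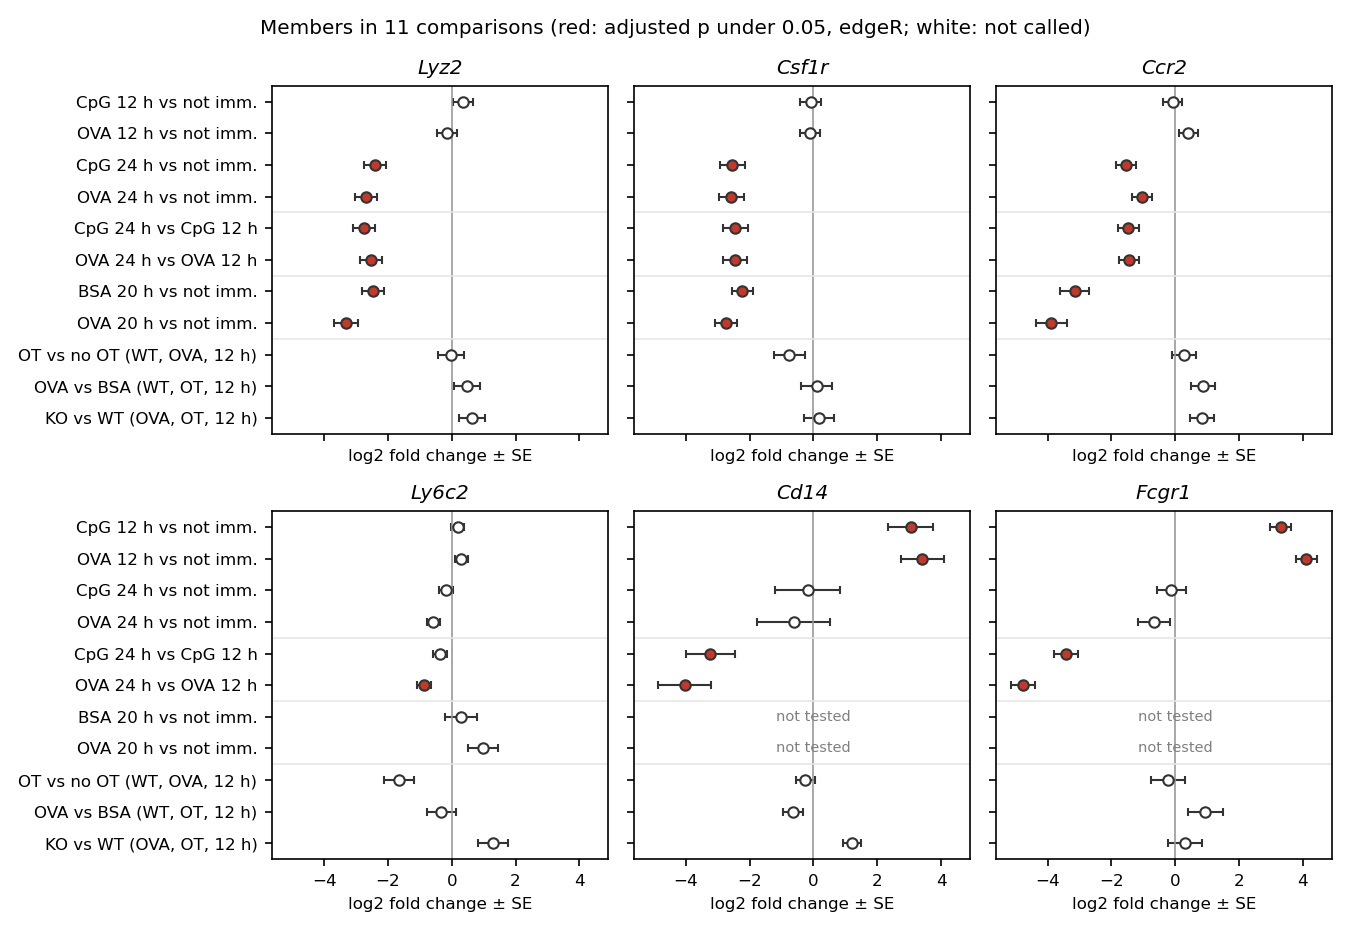
Fitted log2 fold change of each of the 6 genes, with bars of 1 standard error and red points where the edgeR adjusted p was under 0.05. Comparisons of OVA_CpG NP with CpG NP, the interaction and OVA_CpG NP against BSA_CpG NP at 20 h are not drawn. Cd14 and Fcgr1 were not tested at 20 h. In the time course Fcgr1 and Cd14 lie far right of 0 at 12 h, and Lyz2, Csf1r and Ccr2 lie left of 0 at 24 h and at 20 h.

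Set directly against 12 h, all 6 genes fell at 24 h with OVA_CpG NP and 5 of the 6 fell with CpG NP, where 3.87% and 4.26% of all genes fell. In either direction 8.9% and 7.63% were called. Fcgr1 fell most with both particles, by 4.77 ± 0.38 with OVA_CpG NP (edgeR adjusted p = 4.7e-06) and by 3.42 ± 0.36 with CpG NP (edgeR adjusted p = 5.3e-05) on the log2 scale. Cd14 fell by 4.04 ± 0.82 with OVA_CpG NP (edgeR adjusted p = 0.00483), from 3 counts at 24 h against 58 counts at 12 h. Their ratio was 0.0631 with an exact 95% counting interval of 0.0126 to 0.194. Lyz2 fell by 2.54 ± 0.35 with OVA_CpG NP (edgeR adjusted p = 0.000214) and by 2.75 ± 0.34 with CpG NP (edgeR adjusted p = 0.000177). Csf1r fell by 2.46 ± 0.39 and 2.45 ± 0.39, and Ccr2 by 1.44 ± 0.31 and 1.47 ± 0.32.

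Ly6c2 fell by 0.87 ± 0.21 with OVA_CpG NP (edgeR adjusted p = 0.0153), and with CpG NP its -0.37 was not called (edgeR adjusted p = 0.329). The calls of Ly6c2, Ccr2 and Cd14 in these comparisons depended on single libraries. For OVA_CpG NP, Ly6c2 lost its edgeR call without replicate 1 of 12 h (adjusted p = 0.22) or replicate 1 or 2 of 24 h (adjusted p = 0.0827 and 0.105). Ccr2 lost its edgeR call without replicate 2 of 12 h (adjusted p = 0.0976) or replicate 1 or 2 of 24 h (adjusted p = 0.0776 and 0.0565). Cd14 lost its edgeR call without replicate 2 of 12 h (adjusted p = 0.0698) or replicate 1 of 24 h (adjusted p = 0.0682). For CpG NP, Ccr2 lost its edgeR call without replicate 1 of 12 h (adjusted p = 0.124), and Cd14 without replicate 2 of 12 h or of 24 h (adjusted p = 0.167 and 0.117). Lyz2, Csf1r and Fcgr1 kept theirs in every one of these.

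No member was called between OVA_CpG NP and CpG NP at 24 h, and no gene of the 9428 was called there (0%). None of the 6 had an unadjusted p under 0.05 there, and DESeq2 also called 0. The test of whether the OVA_CpG against CpG difference changed between 24 h and 12 h called 3.38% of all genes and no member. Fcgr1 came nearest, with an interaction of -1.35 ± 0.60 on the log2 scale (edgeR adjusted p = 0.292), the single member with an unadjusted p under 0.05. DESeq2 called 0 members in both.

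Ordered by mean level in the time course, Fcgr1 ran from OVA_CpG NP at 12 h through CpG NP at 12 h to the non-immunized group, CpG NP at 24 h and OVA_CpG NP at 24 h, and neighbours in the last 3 positions overlapped. Lyz2 ran from CpG NP at 12 h through non-immunized, OVA_CpG NP at 12 h and CpG NP at 24 h to OVA_CpG NP at 24 h, with an overlap between the last pair. For Csf1r, Ccr2 and Ly6c2 the 3 highest groups were the 2 groups of 12 h and the non-immunized one, and their neighbours overlapped.

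The partners of these receptors were followed as well. Csf1, the growth factor that binds Csf1r, was higher after immunization at both times. It averaged 175 ± 10.4 CPM with OVA_CpG NP and 167 ± 1.59 CPM with CpG NP at 12 h, against 22.0 ± 5.72 CPM in non-immunized libraries (SD, n = 2 each), with log2 fold changes of 3.22 ± 0.34 (edgeR adjusted p = 6.2e-06) and 3.14 ± 0.35 (edgeR adjusted p = 1.4e-05). At 24 h it averaged 142 ± 27.6 and 159 ± 85.1 CPM, with log2 fold changes of 2.91 ± 0.35 and 3.01 ± 0.35. Csf1 was thus above its non-immunized level at the time when Csf1r was below its own. Il34, the other ligand, had no count in any of these time course groups.

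Ccl2, a chemokine that binds Ccr2, averaged 89.8 ± 24.9 CPM with OVA_CpG NP and 53.1 ± 5.04 CPM with CpG NP at 12 h, against 5.67 ± 3.41 CPM in non-immunized libraries. Its log2 fold changes were 4.22 ± 0.42 (edgeR adjusted p = 5.1e-06) and 3.43 ± 0.45 (edgeR adjusted p = 8.3e-05). Ccl12, another ligand, had 76 and 14 counts in the 12 h groups, against 0 counts in the non-immunized group. It was 30.2-fold and 7.01-fold higher by summed counts, where the group's total of 0 was replaced by 3 counts as a floor. The 14 counts with CpG NP were 12 and 2 by library, so the second value rests mainly on 1 library. At 24 h with OVA_CpG NP, Ccl2 had 0 counts against 13 in the non-immunized group, 2.98-fold lower by that floor. Ccl7 was under the filter, with mean levels of 2.18 and 1.69 CPM at 12 h against 0 CPM.

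Of the Fc receptors beside Fcgr1, Fcgr4 and Fcgr3 rose at 12 h with both particles. Fcgr4, an activating receptor, averaged 64.4 ± 10.2 CPM with OVA_CpG NP and 77.2 ± 34.3 CPM with CpG NP, against 13.7 ± 11.8 CPM in non-immunized libraries, with log2 fold changes of 2.43 ± 0.54 and 2.64 ± 0.55. Fcgr3, another activating receptor, had log2 fold changes of 2.22 ± 0.58 and 1.92 ± 0.59. The inhibitory receptor Fcgr2b and Fcer1g, the shared signalling chain, rose with CpG NP, by 1.41 ± 0.39 and 1.23 ± 0.33. With OVA_CpG NP they had log2 fold changes of 1.14 ± 0.39 and 0.95 ± 0.33 and were not called. Of the 6 tested genes of that list, 2 rose and none fell with OVA_CpG NP and 5 rose with CpG NP, and at 24 h none was called against the non-immunized group. Tlr4, which acts with Cd14, was under the filter at 9.52 ± 1.95 and 11.6 ± 0.47 CPM at 12 h against 4.28 ± 0.29 CPM. Ly96, the third part of that receptor, had log2 fold changes of 1.81 ± 0.61 and 1.24 ± 0.67 and was not called.

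Lists of other genes of the same cells were read beside the members. Of 16 tested inflammatory monocyte genes, 12 rose with OVA_CpG NP and 11 with CpG NP at 12 h and none fell. Their median log2 fold changes were 1.66 and 1.59, beside -0.03 and -0.02 over all genes. Ifitm3, an interferon-induced restriction factor, rose by 2.35 ± 0.24 and 1.82 ± 0.24, and Itgam (CD11b) by 1.73 ± 0.30 and 1.58 ± 0.30. At 24 h, 1 of the 16 rose and 5 fell with OVA_CpG NP, and 3 rose and 5 fell with CpG NP. Fn1 (fibronectin) averaged 6.82 CPM at 24 h with OVA_CpG NP against 117 CPM in non-immunized libraries, a log2 change of -3.85 ± 0.59. Against 12 h, 12 of the 16 fell at 24 h with OVA_CpG NP and 13 with CpG NP, with medians of -2.30 and -2.81.

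Macrophage genes divided. Of 9 tested, 5 rose with OVA_CpG NP and 6 with CpG NP at 12 h, and at 24 h 1 rose and 2 fell with each. The gene that rose at 24 h was Cd63, a protein of late endosomes that other cells also carry, at 327 CPM with OVA_CpG NP and 183 CPM with CpG NP against 26.3 CPM. Those that fell were Cd68, a lysosomal membrane protein, and Adgre1 (F4/80). Adgre1 averaged 10.7 ± 6.58 CPM with OVA_CpG NP and 5.84 ± 1.32 CPM with CpG NP, against 34.7 CPM, with log2 fold changes of -1.48 ± 0.42 and -2.28 ± 0.45. Mertk, a receptor for dying cells, had a mean of at most 0.41 CPM in the time course groups. Cx3cr1, the fractalkine receptor of patrolling monocytes, fell at 24 h by 4.35 ± 0.80 with OVA_CpG NP and 3.87 ± 0.73 with CpG NP.

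**Figure D3:**
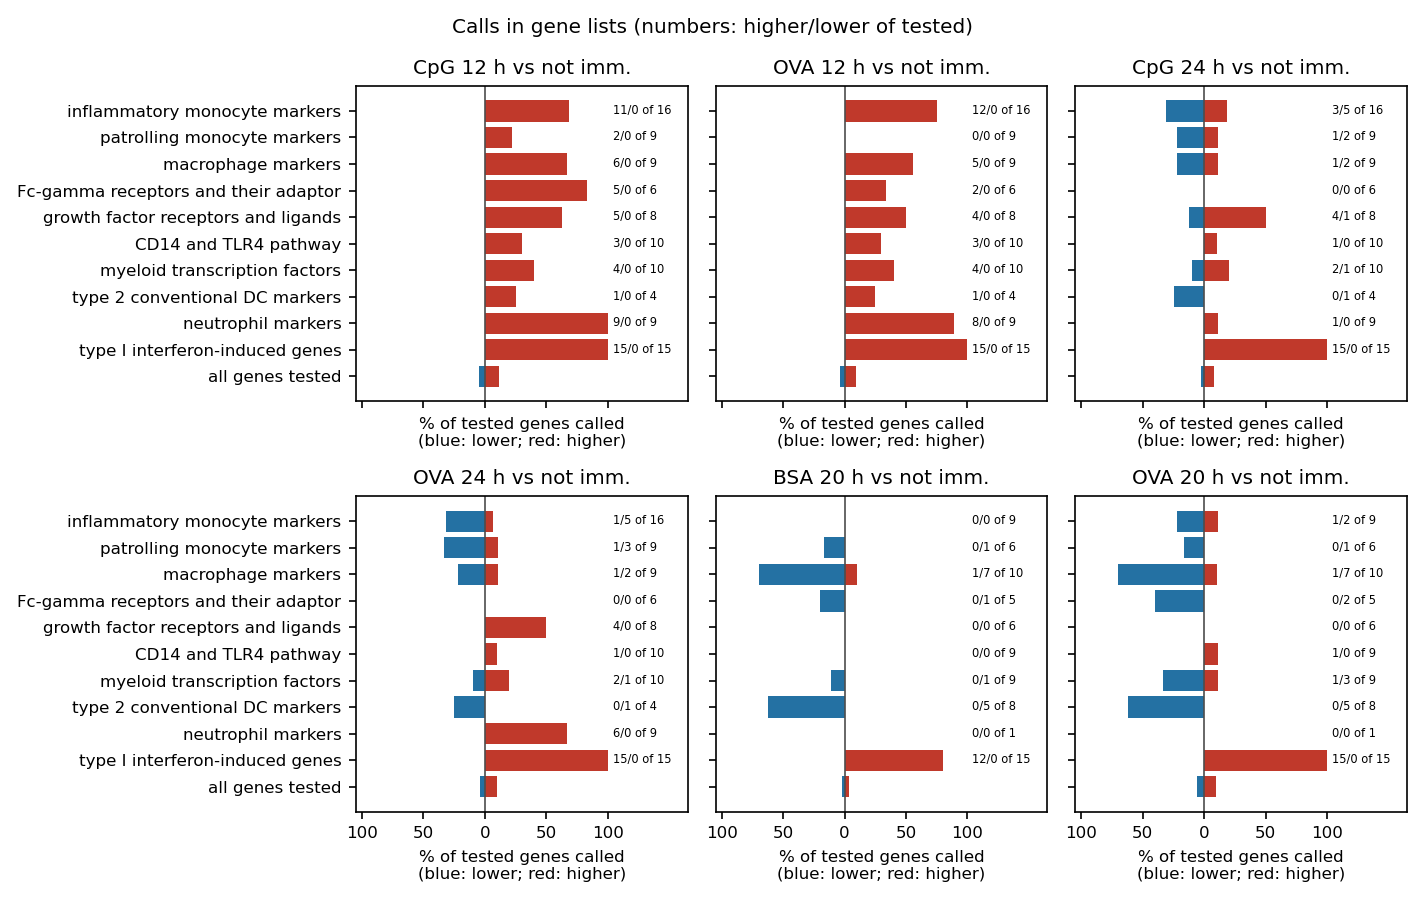
Percent of the tested genes of each list that rose (red, right of 0) or fell (blue, left of 0) in 6 comparisons by edgeR at an adjusted p under 0.05, with the counts beside the bars and all genes tested in the last row. Inflammatory monocyte genes rose at 12 h, and macrophage and type 2 conventional DC genes fell at 20 h.

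Markers of other cells moved with the same groups. The summed level of 13 neutrophil markers was 2558 and 2581 CPM at 12 h after OVA_CpG NP and 14289 and 18164 CPM at 12 h after CpG NP, against 164 and 214 CPM in non-immunized libraries. Of 9 tested, 8 and 9 rose. At 24 h the sums were 454 to 2643 CPM with OVA_CpG NP and 105 to 869 CPM with CpG NP. Neutrophils express Fcgr4, Itgam and, when activated, Fcgr1 and Cd14. All 15 tested genes of the type I interferon list rose in each of the 4 comparisons with non-immunized libraries. The sum of migratory DC markers was 4826 to 6115 CPM at 24 h and 977 to 1217 CPM at 12 h with OVA_CpG NP, and 2186 to 3271 CPM at 24 h and 3788 to 4187 CPM at 12 h with CpG NP, against 490 to 793 CPM in non-immunized libraries. The B cell marker sum was 501 to 1956 CPM at 24 h and 924 to 1371 CPM at 12 h, against 496 to 505 CPM in non-immunized libraries. The NK cell sum was 277 to 585 CPM at 24 h and 178 to 527 CPM at 12 h, against 593 to 692 CPM. Nkg7 made most of the non-immunized sums, with 714 and 580 counts. The NK receptor genes Ncr1, Klrb1c, Klre1 and Klra8 had at most 4 counts each in any time course library. The T cell sum was 2249 to 3264 CPM at 24 h and 1498 to 2439 CPM at 12 h, against 4713 to 5040 CPM, and some T and NK cells carry Ly6C. The part of these cells in the changes of the 6 genes and of Ly6c1 was not tested.

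**Figure D4:**
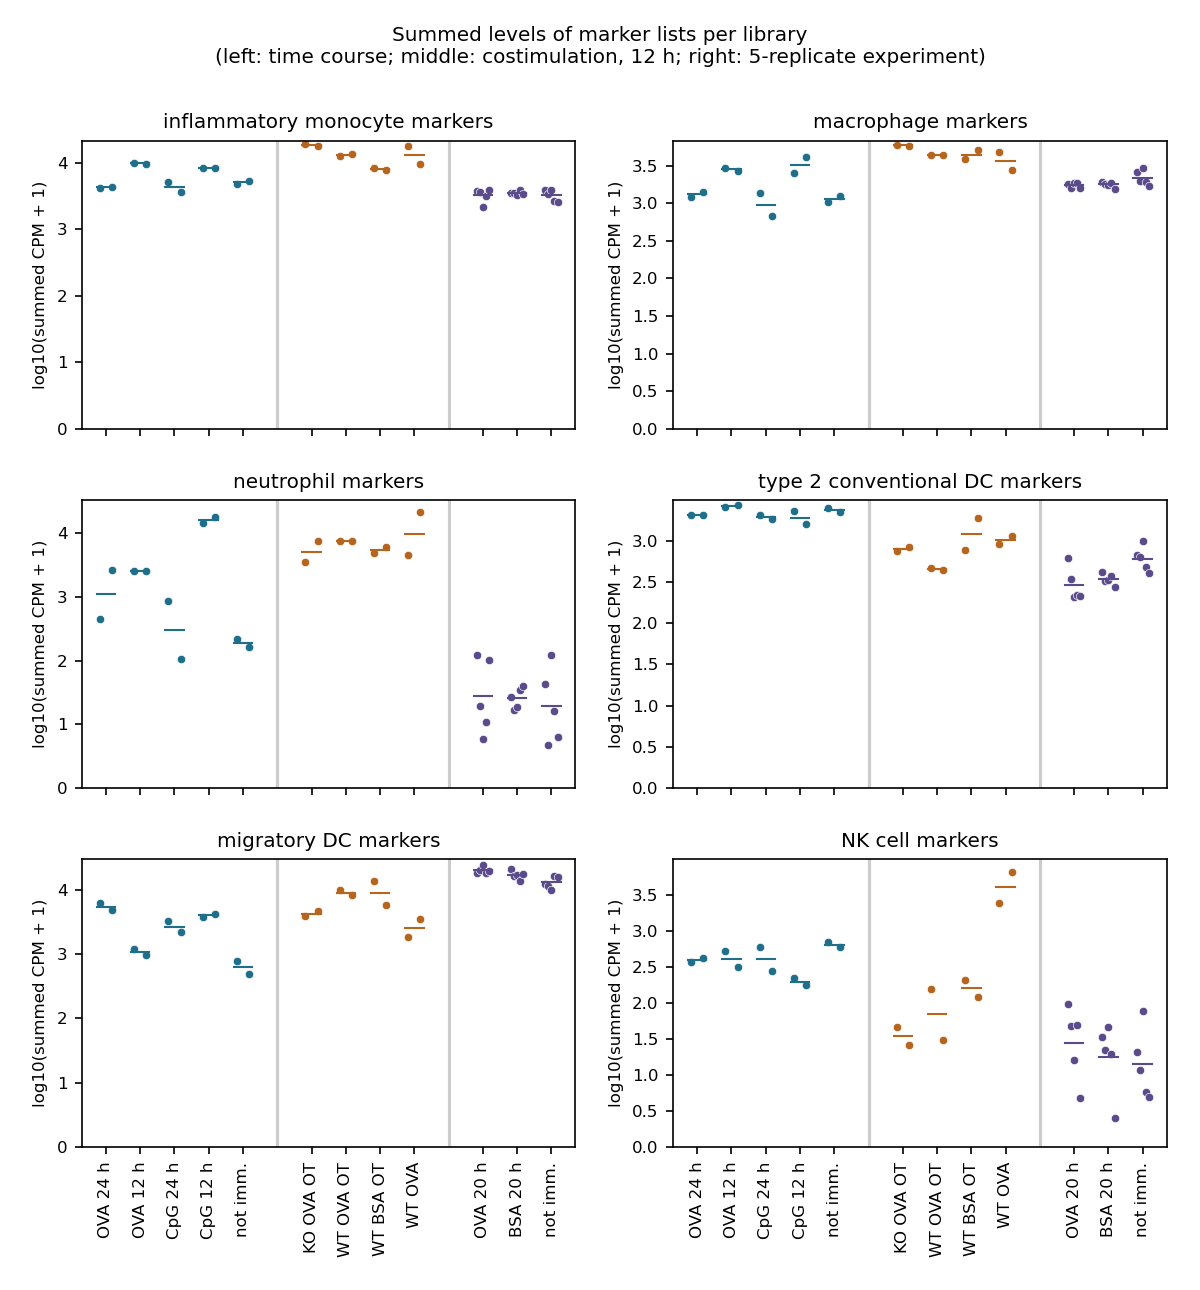
Summed level of marker lists of other cell types in every DC library, as log10(summed CPM + 1), with groups along the horizontal axis. The neutrophil sum was highest in the time course in CpG NP libraries of 12 h and low throughout the 20 h experiment.

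The costimulation experiment asked whether the 6 genes depend on OT cells, on the antigen and on Cd80 and Cd86, the ligands through which DC costimulate T cells. Both targeted genes were counted in the libraries labelled Cd80/86 -/-. Cd80 had 4.23 and 12.4 CPM in libraries labelled Cd80/86 -/-, against 11.4 and 10.02 CPM in wild-type libraries with OVA and OT cells, 17.5 and 4.72 CPM with BSA and OT cells, and 6.17 and 12.4 CPM with OVA alone. Cd86 had 37.4 and 48.5 CPM in libraries labelled Cd80/86 -/-, against 81.5 and 82.6 CPM, 98.7 and 34.2 CPM, and 99.9 and 63.0 CPM in the same wild-type groups. Reads captured at the 3' end can come from a part of a transcript that a deletion leaves, so these levels do not check the genotype, and the label is used as given. The 3 comparisons share the wild-type libraries with OVA and OT cells, and none of the 6 monocyte and macrophage genes was called in any of them. Lyz2 had 2058 and 2094 CPM in libraries labelled Cd80/86 -/- with OVA and OT cells, against 1254 and 1306 CPM in wild-type libraries with OVA and OT cells. Ccr2 had 1080 and 929 CPM in the knockout libraries against 569.7 and 506 CPM in wild-type libraries. Ly6c2 had 4031 and 2993 CPM against 1526 and 1227 CPM, and Cd14 had 89.6 and 82.1 CPM against 37.3 and 33.8 CPM. Csf1r had 524 and 460.1 CPM against 380.1 and 456 CPM, and Fcgr1 had 965 and 450.2 CPM against 478 and 616 CPM. The knockout libraries lay above the wild-type ones for all but Fcgr1, though for Csf1r only by 460.1 against 456 CPM. How many of all genes lie apart in this way was not counted.

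The log2 differences of knockout against wild type were 1.29 ± 0.47 for Ly6c2 (edgeR adjusted p = 0.369), 1.20 ± 0.29 for Cd14 (edgeR adjusted p = 0.222) and 0.83 ± 0.37 for Ccr2 (edgeR adjusted p = 0.427). Those 3 had an unadjusted p under 0.05. By edgeR 0% of all 9355 genes were called, and DESeq2 called 0 members too. With the 4 libraries of this comparison alone in the edgeR fit, Ly6c2 (adjusted p = 0.00186), Cd14 (adjusted p = 0.00741) and Ccr2 (adjusted p = 0.0208) were called, and without the filter on low counts Ly6c2 (adjusted p = 0.0166) and Cd14 (adjusted p = 0.0426). Of all genes tested, these fits called 8.01% and 1.91%. With all libraries in the edgeR fit 0% of all genes were called, so none of the monocyte, macrophage or Fc receptor lists could be. The summed neutrophil markers were 3476 and 7656 CPM in the knockout libraries against 7437 and 7663 CPM in wild-type ones, and migratory DC markers were 3874 and 4669 CPM against 9855 and 8266 CPM. Plasmacytoid DC markers, of cells that also carry Ly6C, summed to 1691 and 1475 CPM in the knockout libraries against 593 and 462 CPM in wild-type ones, and Siglech had 382 and 397 CPM against 39.6 and 15.0 CPM. None of the 8 could be called in the fit with all libraries either. The part of these cells in the differences was not tested.

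With OT cells against without, in wild-type mice given OVA, Ly6c2 had 1526 and 1227 CPM against 5694 and 3313 CPM. Its groups did not overlap, and the log2 difference was -1.66 ± 0.47 (edgeR adjusted p = 0.0903), with 2.6% of all genes called. DESeq2 called Ly6c2 (adjusted p = 0.00586) and 3.11% of the genes it tested. Csf1r had 380.1 and 456 CPM with OT cells against 1119 and 324 CPM without. Its difference took its direction from a single library, since it was -0.75 ± 0.48 with all libraries, 0.49 without replicate 1 of the group without OT cells, and -1.38 without replicate 2. Without that replicate 2, Csf1r and Ly6c2 were both called by edgeR (adjusted p = 0.0432 and 0.0438). Lyz2, Ccr2, Cd14 and Fcgr1 had log2 differences between -0.25 and 0.28. Over the alternatives Lyz2 ran from -0.52 to 0.81 and Fcgr1 from -0.80 to 0.81, and the 2 libraries without OT cells had 1888 and 793 CPM of Lyz2 and 982 and 340 CPM of Fcgr1.

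The libraries without OT cells also held other cells in different measure. Their 8 NK cell markers summed to 2454 and 6574 CPM, whereas they summed to 30.0 and 154 CPM with OT cells, and the other costimulation libraries held at most 208 CPM. Plasmacytoid DC markers summed to 593 and 462 CPM with OT cells against 1116 and 2730 CPM without, with 39.6 and 15.0 CPM of Siglech against 284 and 587 CPM. NK cells, plasmacytoid DC and some T cells carry Ly6C, and the part of these cells in the Ly6c2 difference was not tested. Other genes of the Ly6 family, Ly6a, Ly6g and Ly6i, fell with OT cells (3 of 6 tested), among them Ly6a by 3.20 ± 0.58 (edgeR adjusted p = 0.0202). Of the antigens, OVA with OT cells against BSA with OT cells called none of the 6, and 0.0107% of all genes. Ccr2 had 569.7 and 506 CPM with OVA against 213 and 421 CPM with BSA, which did not overlap (log2 difference 0.86 ± 0.37, edgeR adjusted p = 0.532). It was the single member with an unadjusted p under 0.05, and DESeq2 called 0. Fcgr1 had 478 and 616 CPM with OVA against 382 and 216 CPM with BSA (log2 difference 0.94 ± 0.55), Lyz2 had 1254 and 1306 CPM against 762 and 1193 CPM (0.48 ± 0.41), and Cd14 had 37.3 and 33.8 CPM against 63.7 and 54.2 CPM (-0.64 ± 0.30). These 3 did not overlap either, and Cd14 was lower with OVA. How many of all genes lie apart between groups of 2 libraries was not counted.

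At 20 h, in the experiment with 5 libraries per group, Lyz2, Csf1r and Ccr2 were again lower in immunized mice, with both antigens. Lyz2 had a lowest level of 21.4, a median of 40.9 and a highest of 68.4 CPM with OVA_CpG NP, and 25.8, 74.5 and 127 CPM with BSA_CpG NP, against 275, 434 and 743 CPM in non-immunized libraries. By replicate it had 68.4, 26.2, 21.4, 43.9 and 40.9 CPM with OVA_CpG NP, 25.8, 127, 74.5, 91.5 and 49.2 CPM with BSA_CpG NP, and 474, 434, 743, 275 and 286 CPM without immunization. All 10 immunized libraries lay below the lowest non-immunized one. The log2 fold change was -3.31 ± 0.36 (edgeR adjusted p = 1.4e-05) with OVA_CpG NP and -2.46 ± 0.35 (edgeR adjusted p = 0.00057) with BSA_CpG NP.

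Csf1r had 46.4, 24.0, 8.77, 22.0 and 19.2 CPM with OVA_CpG NP and 22.4, 51.2, 34.4, 29.4 and 29.5 CPM with BSA_CpG NP, against 164, 139, 340.4, 121 and 128 CPM in non-immunized libraries. The groups did not overlap, and the log2 fold changes were -2.73 ± 0.34 (edgeR adjusted p = 3.0e-05) and -2.23 ± 0.33 (edgeR adjusted p = 0.00088). Ccr2 had 13.4, 14.2, 3.41, 13.5 and 4.47 CPM with OVA_CpG NP and 4.15, 33.1, 13.2, 19.1 and 7.57 CPM with BSA_CpG NP, against 186, 155, 297, 66.5 and 76.9 CPM in non-immunized libraries. Again no library overlapped. Replicate 3 of the non-immunized group, the shallowest library, was the highest of its group for all 3 genes, and without it their log2 fold changes with OVA_CpG NP were -3.06, -2.42 and -3.58 and all stayed called. With all libraries, Ccr2 changed most of the 3, by -3.88 ± 0.48 (edgeR adjusted p = 2.4e-05) and -3.15 ± 0.44 (edgeR adjusted p = 0.00057). Of the 4 members tested, 3 were called in each comparison, all lower. Of all 9159 genes, 6.04% fell with OVA_CpG NP and 1.77% with BSA_CpG NP, and 15.6% and 5.45% were called in either direction. These comparisons share the non-immunized libraries.

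Ly6c2 was not called at 20 h. It had 82.5, 28.3, 15.6, 22.7 and 23.6 CPM with OVA_CpG NP and 34.9, 11.02, 19.5, 18.3 and 21.2 CPM with BSA_CpG NP, against 24.1, 20.5, 54.5, 11.6 and 6.63 CPM in non-immunized libraries. The groups overlapped, and the log2 fold changes of 0.98 ± 0.48 (edgeR adjusted p = 0.172) and 0.29 were not called. Cd14 and Fcgr1 did not pass the filter on low counts. Cd14 had 0, 2.18, 3.41, 2.12 and 1.92 CPM with OVA_CpG NP and 3.32, 3.15, 4.01, 2.39 and 3.03 CPM with BSA_CpG NP, against 4.38, 6.85, 40.8, 6.71 and 5.96 CPM in non-immunized libraries. The count of 0 in OVA_CpG NP replicate 1 allows up to 2.36 CPM. Both immunized groups lay below the non-immunized one, though with BSA_CpG NP only by 4.01 CPM (7 counts) against 4.38 CPM (4 counts). With no filter, Cd14 had a log2 fold change of -2.07 ± 0.56 with OVA_CpG NP (edgeR adjusted p = 0.0128), and DESeq2 gave -2.37 ± 0.69 (adjusted p = 0.0087). These fits called 8.87% and 12.4% of all genes tested. With BSA_CpG NP Cd14 was called by neither. Both fits include non-immunized replicate 3, whose 40.8 CPM of Cd14 rests on 15 counts, and Cd14 was not tested without that library. Fcgr1 had at most 14.1 CPM with OVA_CpG NP and 6.30 CPM with BSA_CpG NP, against 24.5 CPM in non-immunized libraries, and the groups overlapped. The 24.5 CPM rests on 9 counts in non-immunized replicate 3. Medians were 2.44 CPM with OVA_CpG NP and 3.18 CPM with BSA_CpG NP, against 1.52 CPM.

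None of the 4 members tested was called between OVA_CpG NP and BSA_CpG NP at 20 h, and 0% of all genes were called. Lyz2 had a log2 difference of -0.85 ± 0.36 (edgeR adjusted p = 0.766), the single member with an unadjusted p under 0.05, and DESeq2 called 0. Libraries of the 2 antigens overlapped for each of the 6 genes.

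Transcripts of Y-linked genes passed 20 CPM in 2 of 5 OVA_CpG NP libraries and 0 of 5 BSA_CpG NP libraries, against 3 of 5 non-immunized libraries of this experiment, and in no library of the other 2. With this as a term in the fit, chosen after seeing the data, Lyz2, Csf1r and Ccr2 stayed called, at -3.18, -2.70 and -3.63 with OVA_CpG NP and -2.21, -2.17 and -2.42 with BSA_CpG NP. In libraries without such transcripts, Lyz2 had 26.2 to 68.4 CPM with OVA_CpG NP (n = 3) and 25.8 to 127 CPM with BSA_CpG NP (n = 5), against 275 to 286 CPM without immunization (n = 2).

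Other genes fell with the 3 members at 20 h. Of 10 tested macrophage genes, 7 fell and 1 rose with each antigen, with medians of -1.49 and -1.15 beside -0.01 over all genes in both. The gene that rose was again Cd63. Adgre1 fell by 1.51 ± 0.26 and 1.23 ± 0.25, and C1qa, a chain of the complement starter C1q, by 1.88 ± 0.32 and 1.57 ± 0.32. Itgax (CD11c), which conventional DC also express, fell by 1.37 ± 0.16 and 0.90 ± 0.15. Of 8 tested type 2 conventional DC genes, 5 fell and none rose with each antigen. The lectin Cd209a averaged 4.15 CPM with OVA_CpG NP and 7.97 CPM with BSA_CpG NP against 112 CPM, and the lectin Mgl2 averaged 6.83 and 14.6 CPM against 74.9 CPM. Fcgr3 fell by 2.77 ± 0.58 and 2.25 ± 0.55, and Cx3cr1 by 3.12 ± 0.41 and 2.44 ± 0.38.

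Of 9 inflammatory monocyte genes tested at 20 h, 1 rose and 2 fell with OVA_CpG NP, where 15.6% of all genes were called, and none was called with BSA_CpG NP, where 5.45% were, with medians of 0.19 and 0.11. Csf1 averaged 55.1 ± 7.50 CPM with OVA_CpG NP and 55.4 ± 12.9 CPM with BSA_CpG NP, against 81.3 ± 22.5 CPM (SD, n = 5 each), and its log2 fold changes of -0.42 ± 0.19 and -0.43 ± 0.19 were not called. The sum of 9 type 2 DC markers was 207 to 611 CPM with OVA_CpG NP and 273 to 415 CPM with BSA_CpG NP, against 400 to 991 CPM in non-immunized libraries. In OVA_CpG NP replicate 1, with 611 CPM, Ltb had 467 and Cd7 156 counts, beside 17 of Cd209a, 17 of Mgl2 and 3 of Clec10a. The migratory DC sum was 18089 to 24356 CPM with OVA_CpG NP and 13884 to 20968 CPM with BSA_CpG NP, against 9992 to 16504 CPM. The neutrophil sum stayed between 3.80 and 120 CPM in all 15 libraries. The part of a changed mix of DC subsets was not tested.

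Lyz2 and Ly6c2 each have a paralog with stretches of identical sequence, Lyz1 and Ly6c1, to which counting may assign their reads. Of all 50-base windows of the Ly6c2 transcript, 252 of 773 (32.6%) occur in that of Ly6c1, and 195 of 1267 windows of Lyz2 (15.4%) occur in that of Lyz1. How many reads were ambiguous was not tested, and the values within each pair are uncertain. The promoters of both pairs are printed to show how alike they are, from RefSeq on GRCm38.p6, with the 250 bases before the gene's first listed start and capitals at bases that differ from, or have no partner in, the paralog. Lyz2 lies at chr10:117282273-117282522 and Lyz1 at chr10:117292869-117293118, Ly6c2 at chr15:75111972-75112221 and Ly6c1 at chr15:75048838-75049087, all on the minus strand.
Lyz2: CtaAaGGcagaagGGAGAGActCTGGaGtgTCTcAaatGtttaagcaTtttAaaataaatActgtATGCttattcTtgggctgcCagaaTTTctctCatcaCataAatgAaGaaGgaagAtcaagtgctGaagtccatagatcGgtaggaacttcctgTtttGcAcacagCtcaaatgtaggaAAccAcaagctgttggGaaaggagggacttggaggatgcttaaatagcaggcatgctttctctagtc
Lyz1: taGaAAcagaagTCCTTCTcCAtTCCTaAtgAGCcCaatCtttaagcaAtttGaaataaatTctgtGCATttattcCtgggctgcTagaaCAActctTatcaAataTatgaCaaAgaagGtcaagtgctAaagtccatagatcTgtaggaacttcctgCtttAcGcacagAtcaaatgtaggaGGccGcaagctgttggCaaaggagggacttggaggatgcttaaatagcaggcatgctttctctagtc
Ly6c2: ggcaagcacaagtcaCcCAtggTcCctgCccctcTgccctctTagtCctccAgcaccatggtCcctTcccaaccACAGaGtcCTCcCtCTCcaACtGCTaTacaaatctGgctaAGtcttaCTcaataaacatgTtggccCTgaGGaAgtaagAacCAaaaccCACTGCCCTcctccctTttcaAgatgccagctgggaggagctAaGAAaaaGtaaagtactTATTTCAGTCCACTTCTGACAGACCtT
Ly6c1: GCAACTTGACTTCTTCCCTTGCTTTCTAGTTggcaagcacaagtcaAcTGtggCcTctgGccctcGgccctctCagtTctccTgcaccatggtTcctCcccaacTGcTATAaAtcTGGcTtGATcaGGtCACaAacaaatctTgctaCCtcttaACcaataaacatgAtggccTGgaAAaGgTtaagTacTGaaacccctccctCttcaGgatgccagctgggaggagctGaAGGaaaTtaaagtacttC
In a global alignment the Lyz2 and Lyz1 windows were identical in 200 of 252 columns (79.4%), and the Ly6c2 and Ly6c1 windows in 164 of 284 (57.7%). Ly6c2 held a PU.1 motif 108 to 103 bases before its start and Ly6c1 one 158 to 153 bases before its own, within an NF-kB motif. Lyz1 held a C/EBP motif 209 to 202 bases before its start.

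The counts of the paralogs moved differently in the pairs. Lyz1, which encodes lysozyme P, followed Lyz2. It fell at 24 h by 2.55 ± 0.55 with OVA_CpG NP (edgeR adjusted p = 0.00415) and by 3.40 ± 0.60 with CpG NP (edgeR adjusted p = 0.00112), and at 20 h by 3.38 ± 0.38 with OVA_CpG NP and 1.83 ± 0.35 with BSA_CpG NP. Its share of the pair's summed raw counts was 4.88% to 19.4% in the time course, 8.13% to 21.0% in the costimulation experiment and 36.6% to 62.5% at 20 h. Ly6c1, which encodes another Ly6C protein, rose at 24 h, where Ly6c2 was not called. It had 248 and 254 CPM at 24 h after OVA_CpG NP and 345 and 467 CPM at 24 h after CpG NP, against 57.9 and 42.2 CPM in non-immunized libraries, log2 fold changes of 2.53 ± 0.28 (edgeR adjusted p = 7.7e-06) and 3.22 ± 0.27 (edgeR adjusted p = 1.5e-06).

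The share of Ly6c1 in the pair's counts was 36.9% to 37.8% at 24 h with OVA_CpG NP and 39.9% to 43.9% with CpG NP, 12.9% to 16.1% and 6.95% to 10.6% at 12 h, and 5.83% to 6.98% in non-immunized libraries. In the costimulation experiment it was 1.30% to 2.97%. With the counts of each pair summed, an alternative chosen after seeing the data, the 24 h change with OVA_CpG NP against non-immunized was 0.006 in place of -0.57. The change against 12 h with OVA_CpG NP was -0.42 (edgeR adjusted p = 0.252) in place of -0.87, and lost its call. The Ly6c2 call with OVA_CpG NP between these times thus held for counts assigned to Ly6c2 and not for the sum of the pair.

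**Figure D5:**
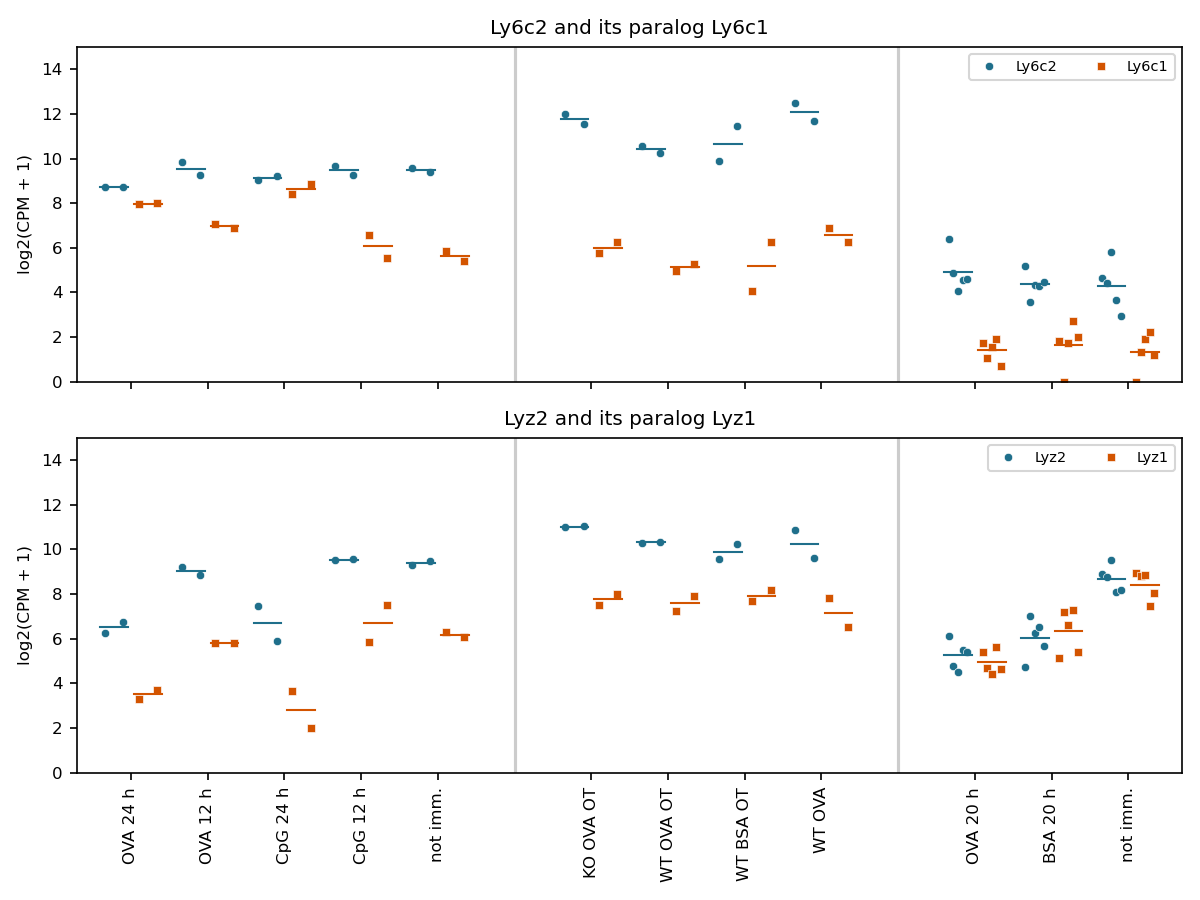
Levels of Ly6c2 and Ly6c1 (top) and of Lyz2 and Lyz1 (bottom) in every DC library, as log2(CPM + 1), with points for libraries and a line at each group's mean. Ly6c1 rose at 24 h in the time course, where Ly6c2 was not called, and Lyz1 was low wherever Lyz2 was low in the time course and at 20 h.

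Likeness between genes was described by Pearson's r of log2(CPM + 1), centred within each experiment, over the 33 libraries and the 7169 genes that averaged 10 CPM or more in each experiment. These libraries share groups, depth and cell mix, so r describes them and carries no test. Lyz2 and Csf1r were most like each other, with r = 0.96 (0.97 in the time course, 0.62 in the costimulation experiment and 0.97 at 20 h). For Lyz2 the next were Lyz1 at 0.94 and the lectin Clec4a2 at 0.94, and for Csf1r Cx3cr1 at 0.93 and the lectin Clec4a3 at 0.93. Ccr2 was most like Lyz2 at 0.91, then Myo1f, a myosin, at 0.88 and Clec7a (dectin-1) at 0.87.

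The other members stood apart from these 3. Fcgr1 was most like Bst1 at 0.84, the transporter Slc15a3 at 0.84 and the interferon-induced gene Ifi205 at 0.83. Its r with Bst1 was 0.98 in the time course, 0.91 in the costimulation experiment and 0.36 at 20 h. Cd14 was most like C1qb at 0.79, Adam9 at 0.76 and Gpr35 at 0.76. Its r with C1qb was 0.87 in the time course, -0.14 in the costimulation experiment and 0.84 at 20 h. Cd14 and Fcgr1 had r = 0.64 with each other, 0.94 in the time course but 0.17 in the costimulation experiment and 0.20 at 20 h. Ly6c2 was most like Ly6e, of the same family, at 0.81, Gtf2f1 at 0.77 and Tmem173 (STING) at 0.73. With Lyz2 it had r = 0.12 over all 33 libraries, with 0.76 in the time course and -0.11 at 20 h.

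No test was made between the tables of separate experiments, and levels across them are given side by side. Non-immunized libraries held 681 to 771 CPM of Ly6c2 in the time course and 6.63 to 54.5 CPM at 20 h. For Fcgr1, wild-type libraries 12 h after OVA held 253 to 289 CPM in the time course and 340 to 982 CPM in the costimulation experiment. For Lyz2, non-immunized libraries held 636 to 721 CPM and 275 to 743 CPM. Lyz2, Csf1r and Ccr2 were lower than in non-immunized libraries in each of the 4 comparisons made at 24 h or 20 h. Fcgr1 was higher than in non-immunized libraries in both comparisons at 12 h.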

How the data were processed

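RNA was measured by sequencing of poly(A)-captured libraries, 33 of sorted DC and 6 of OT-II T cells. The authors deposited raw whole-number counts per gene for the DC libraries, and those columns were used here. For the T cells the deposited values were a normalized signal, counts divided by a size factor of each library, and no test was run on them. Reads were processed with bcl2fastq, HISAT 0.1.6, HOMER and the mm9 build, per the submitters' processing notes. In the 5-replicate table, 4 columns match no sample in the labels and were not used.

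Each experiment was fitted alone with edgeR 4.0.16 in R 4.3.3 (quasi-likelihood test, TMM scaling, filterByExpr by group, all groups of the experiment in the fit, no covariate), with Benjamini-Hochberg adjustment over all genes tested and calls at an adjusted p under 0.05. Standard errors are the log2 fold change divided by the root of the F statistic. The steps were tested on simulated data. In all, 15 comparisons were made. The alternatives were DESeq2 1.42.0, a fit blocked by replicate number, edgeR with DESeq2's size factors, edgeR with every gene kept or with those averaging 1 CPM or more, fits to the compared groups alone, and fits that left out each library. Summed paralog counts and a term for Y-linked transcripts were added after seeing the data.

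The 6 members and all gene lists were chosen with earlier results of these data known. Besides the members, direct partners were named whatever their result, and up to 3 called genes with the smallest adjusted p per list and comparison. An item that this rule covers is not reported here. Intervals and floors (3 counts for a count of 0, exact 95% intervals) cover counting error only. Promoters came from RefSeq (GRCm38.p6) and were matched by symbol. Transcripts for the 50-base windows were those of the GENCODE annotation of GRCm38. No coordinates were taken from the count tables. Python 3.11.15, pandas 2.3.3, numpy 2.4.6, matplotlib 3.10.9 and Biopython 1.88 were used.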

Additional observations from a re-analysis of the deposited data

Results flagged for a closer look

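In 18 groups of 5 libraries (6 genes in 3 groups at 20 h), 5 held a library far from the others, and chance flags about 1 in 20 such groups. Replicate 3 of the non-immunized group, the shallowest library, was high for 3 genes. It had 340.4 CPM of Csf1r (125 counts), and the other 4 libraries had 121 to 164 CPM. It had 40.8 CPM of Cd14 (15 counts), beside 4.38 to 6.85 CPM in the others. It had 24.5 CPM of Fcgr1 (9 counts), beside 0.61 to 3.31 CPM. Replicate 1 of OVA_CpG NP had 82.5 CPM of Ly6c2 (105 counts), beside 15.6 to 28.3 CPM, and 14.1 CPM of Fcgr1 (18 counts), beside 0.64 to 3.54 CPM.

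Outside the DC tables, Ly6c2 was counted in OT-II T cells, with a median of 199 normalized counts over 6 libraries and a range of 28.3 to 428.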

How the results depend on the processing

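Of 190 alternative counts of members called, 172 were within 1.5 times the main count and 18 moved; of 457 alternatives for changes called in some fit, 413 kept direction and side of the threshold, 18 gained a call, 22 lost one and 4 reversed. A further 47 pairs of member and comparison were never called, 25 with a change of sign. Fcgr1 at 12 h against non-immunized was called under all alternatives run (largest adjusted p 0.000851 with CpG NP and 9.37e-05 with OVA_CpG NP), and at 20 h the calls of Lyz2, Csf1r and Ccr2 held under all. No filter gave 1 member called between OVA_CpG NP and CpG NP at 12 h, 1 with against without OT cells and 2 for knockout against wild type; the compared groups alone gave 1, 1 and 3, and 3 for CpG NP at 24 h against 12 h. DESeq2 and the replicate block each gave 1 with against without OT cells (Ly6c2, block adjusted p 0.00505). Leaving out 1 library gave 1 to 2 members called at 12 h against non-immunized with each particle, 0 to 1 between particles at 24 h and for the interaction, 3 to 5 for OVA_CpG NP at 24 h against 12 h, and 0 to 2 with against without OT cells. Reversed were the Lyz2 interaction (-0.45 without CpG NP 24 h replicate 2 and -0.00062 without OVA_CpG NP 24 h replicate 2, with 1.13 without CpG NP 24 h replicate 1), Csf1r with against without OT cells (0.49 without replicate 1 of the group without them, -1.38 without replicate 2) and Ly6c2 with OVA_CpG NP at 24 h (0.00596 with paralogs summed); the cause was not tested. Same-numbered libraries did not deviate together (median correlation 0.00863, 0.0288 and -0.0246 in the 3 experiments), so the numbers are not taken as pairs. Counts over all genes moved by more than 1.5 times as follows. DESeq2 called 1014 genes against 1535 by edgeR (CpG NP) and 794 against 1282 (OVA_CpG NP) at 12 h, 887 against 1332 with OVA_CpG NP at 24 h, 443 against 719 (CpG NP) and 519 against 839 (OVA_CpG NP) for 24 h against 12 h, 37 against 0 between particles at 24 h, 12 against 1 between antigens and 44 against 0 for the knockout. No filter called 469 against 232 between particles at 12 h, 240 against 0 at 24 h, 594 against 319 for the interaction, 917 against 243 for OT cells, 227 against 1 between antigens, 303 against 0 for the knockout and 2 against 0 between antigens at 20 h. The compared groups alone called 413 against 232 between particles at 12 h, 242 against 719 for CpG NP at 24 h against 12 h, 486 against 243 for OT cells, 4 against 1 between antigens and 679 against 0 for the knockout; the block called 696, 2 and 48 in those last 3. Genes averaging 1 CPM or more gave 8 between particles at 24 h and 1 for the knockout, and the Y-linked term 187 against 499 for BSA_CpG NP. Leaving out 1 library gave 714 to 1099 genes with CpG NP and 529 to 831 with OVA_CpG NP at 12 h, 446 to 1126 and 641 to 1054 at 24 h, 274 to 1148 and 293 to 563 for 24 h against 12 h, 24 to 168 and 0 to 453 between particles at 12 h and 24 h, 155 to 744 for the interaction, 8 to 321 for OT cells (lowest without replicate 2 of the group with OT cells), 0 to 200 between antigens, 0 for the knockout in each, and at 20 h 994 to 1415 with OVA_CpG NP, 205 to 494 with BSA_CpG NP and 0 to 4 between antigens, so the shares of all genes printed beside the members vary with single libraries. Depth limits Cd14 and Fcgr1, which had few counts outside the 12 h libraries.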

Other observations

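In the OT-II T cells sorted at 20 h, Ly6c2 had 28.3, 428 and 159.9 normalized counts with OVA_CpG NP, against 237, 82.1 and 290.4 normalized counts with BSA_CpG NP. Ly6c1 had 293, 201 and 79.97 normalized counts with OVA_CpG NP, against 403, 273 and 294 normalized counts with BSA_CpG NP. Libraries of the 2 antigens overlapped for both genes, and subsets of T cells are known to carry Ly6C. Lyz2 had 2.10, 22.9 and 20.7 normalized counts with OVA_CpG NP, against 20.8, 10.6 and 10.2 with BSA_CpG NP. Csf1r had 3.15, 10.1 and 12.4 normalized counts, against 13.3, 13.2 and 6.11. Fcgr1 and Lyz1 had no row in that table.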
